A study of Mus musculus with 6 samples.

Results

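The 10 genes described here encode proteins of the extracellular matrix other than collagen chains, together with 1 enzyme that cross-links the matrix. They are Lox, Mfap5, Sparc, Fn1, Dcn, Lum, Bgn, Postn, Thbs1 and Fbn1, chosen by name with earlier results of these data known. Each matched 1 of the 43629 mouse genes in the count table. The extracellular matrix is the fibrous network around cells. Collagen and elastic fibres carry its load, fibronectin and fibrillin form scaffolds on which other proteins assemble, small proteoglycans coat collagen fibrils and set their thickness, and matricellular proteins tune how cells attach. In tumours most of these proteins are known as products of fibroblasts and of cells of the vessel wall, and tumour cells can make some of them, SPARC and fibronectin among them.

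RNA was measured in B16F10 tumours, from a mouse melanoma cell line injected under the skin of 8-week-old female C57BL/6J mice. Dosing began once the tumours had vessels and ran daily until control tumours reached 2000 mm3. There were 6 libraries, 1 per treatment, each from tumours pooled before RNA extraction. The control pool received DMSO with control IgG, and the anti-PD-1 pool received DMSO with an antibody against PD-1, an inhibitory receptor of T cells. The AZD5363+MK1775 pool received an AKT inhibitor, a WEE1 inhibitor and control IgG, and the AZD5363+MK1775+anti-PD-1 pool received both inhibitors and the antibody and is called the triple-combination pool. The KS100 pool received an inhibitor of aldehyde dehydrogenases with control IgG, and the KS100+anti-PD-1 pool received that inhibitor with the antibody. The labels name DMSO for the pools without an inhibitor and not for the others. A pool averages its mice, so the spread between animals was not measured, and with bulk RNA more cells of a type and more RNA per cell cannot be told apart.

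The libraries differed widely in depth, from 25521 counts in the KS100+anti-PD-1 pool to 1591673 in the control pool. Levels are given as normalised CPM, counts per 1000000 of a library size scaled by the trimmed mean of M-values (TMM). A count of 0 allows a level of up to 3 counts. That limit equals 1.96 normalised CPM for control, 3.03 for anti-PD-1, 14.9 for AZD5363+MK1775+anti-PD-1 and between 90.6 and 174 for the remaining 3 pools. Reads came from the 3′ ends of transcripts, so levels are compared between pools for 1 gene and not between genes. Melanoma cell markers were present as labelled, with 6 or 7 of 7 detected in each pool. They summed to 21175 normalised CPM in control, 17571 with anti-PD-1, 17060 with the triple combination and between 3535 and 9064 in the other 3. Mitochondrial genes took 1.29% to 1.89% of the 2 libraries without inhibitor and 13.2% to 19.8% of the 4 with one, and 27.4% of the AZD5363+MK1775+anti-PD-1 library came from ribosomal RNA genes.

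Summed over the 10 genes, control had 681 counts, anti-PD-1 1326 and AZD5363+MK1775+anti-PD-1 388, while AZD5363+MK1775 had 15, KS100 27 and KS100+anti-PD-1 8. The first 3 of these libraries therefore carry nearly all the information, and the other 3 give wide intervals. With 1 library per treatment no pair of pools has a replicate check. Genes that reached 20 counts in either library of a comparison were tested. They were called higher or lower where the normalised ratio reached 2-fold up or down and its 95% exact conditional interval lay wholly beyond 1.5-fold. Intervals after a level or a ratio cover counting error only.

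**Figure D1:**
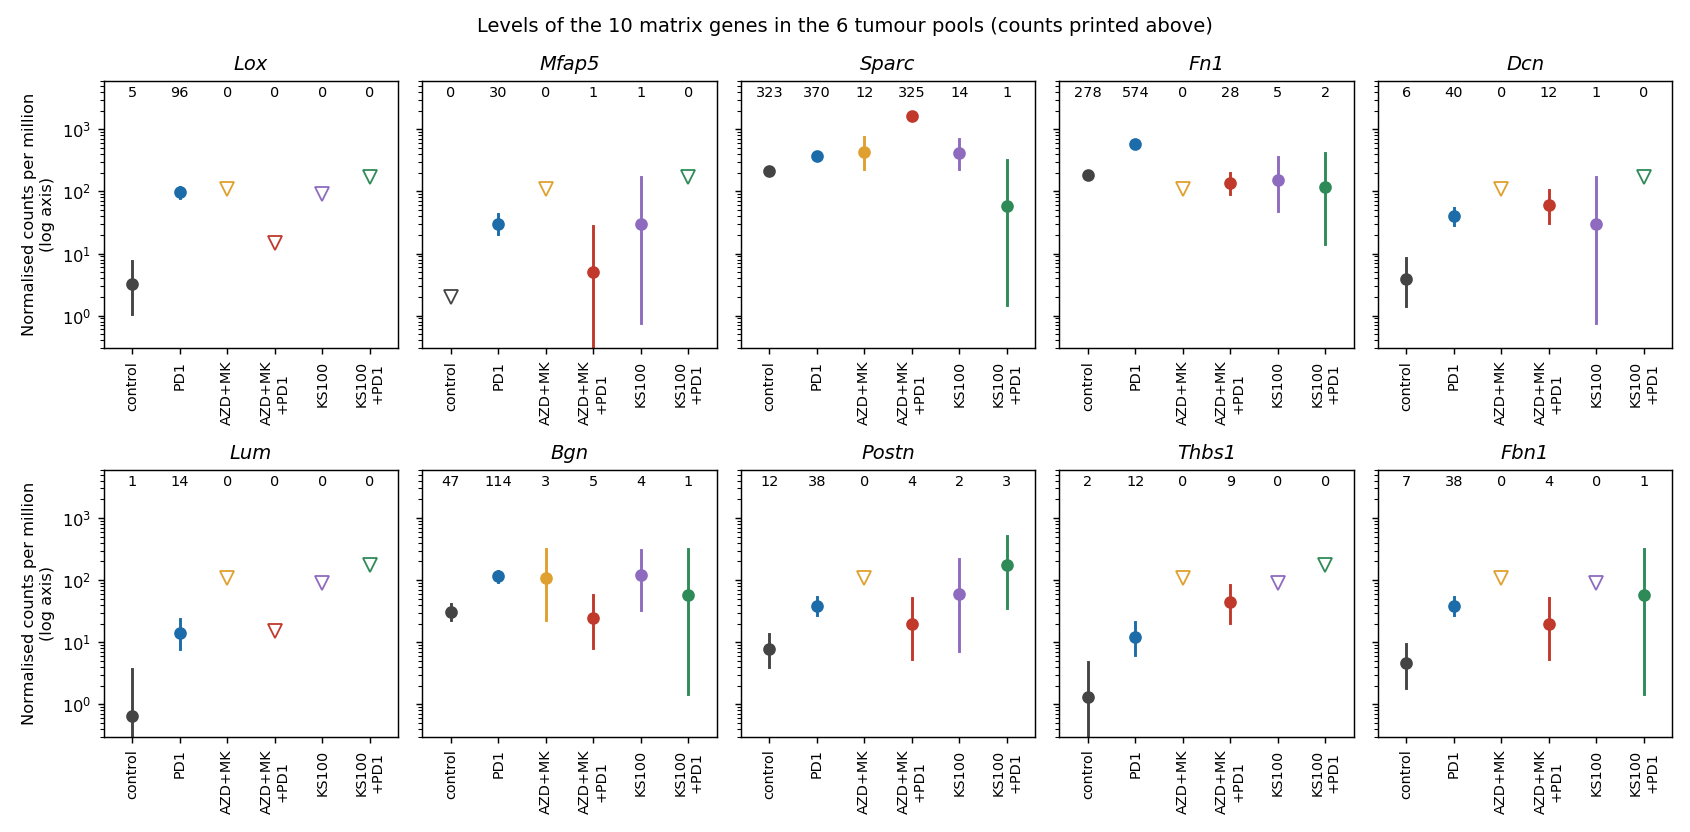
Normalised CPM (log axis) of each gene in the 6 pools (PD1, anti-PD-1; AZD+MK, AZD5363+MK1775), with 95% exact Poisson intervals as bars and the count above each point; open triangles mark the 3-count limit where the count was 0. Lox, Mfap5 and Lum have counts mainly in the anti-PD-1 pool, while Sparc is highest in the triple-combination pool at 1616.

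The anti-PD-1 pool was set against the control pool to ask what the antibody did without an inhibitor. Matrix transcripts were more abundant with the antibody. All 10 genes had a ratio above 1, and 7 of the 8 with enough counts were called higher, where 2.69% of the 8119 genes tested were called higher and 2.14% lower. The exception among the 8 was Sparc. The set was chosen with earlier results of these data known, so the contrast with all genes is no independent check. Of the 8, 5 (Lox, Mfap5, Dcn, Postn and Fbn1) reached 20 counts only in the anti-PD-1 library, so they could enter the test only by being high there. Sparc, Fn1 and Bgn reached 20 counts in control, and 2 of these 3 were called higher, beside 1.59% of the 7943 genes with 20 counts in control. The 9 genes other than Sparc summed to 956 counts against 358, a ratio of 4.12 (3.65 to 4.67). Over all 10 genes, whatever their counts, the median log2 ratio was 2.47 (prior count of 2), and over all genes tested it was -0.00.

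Lox encodes lysyl oxidase, the secreted enzyme that oxidises lysines in collagen and elastin so that fibres become cross-linked. The gene (ENSMUSG00000024529) lies at chr18:52516067-52529867 in GRCm38, on the minus strand. It had 5 counts in control, 96 with anti-PD-1 and 0 in each of the 4 inhibitor pools. Its level was 3.27 normalised CPM (1.06 to 7.64) in control and 97.1 (78.6 to 119) with anti-PD-1. The ratio was 29.7 (12.3 to 93.4), the highest among the members with counts in both pools. The 0 in the triple-combination pool, set at 3 counts, lies 6.51-fold below the anti-PD-1 level, and the upper limit of the ratio is 0.193. The limit of 3 counts is 109 normalised CPM with AZD5363+MK1775, 90.6 with KS100 and 174 with KS100+anti-PD-1, so a level as high as that of the anti-PD-1 pool was near or below what those libraries could show.

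Mfap5 and Fbn1 encode parts of the microfibril, the thin fibre on which elastin is laid down. Mfap5 (chr6:122505845-122529290, plus strand) encodes a small glycoprotein that binds fibrillin. It had 0 counts in control, 30 with anti-PD-1, 1 each in the triple-combination and KS100 pools and 0 in the other 2. It was at least 15.4-fold higher with anti-PD-1 than in control. Fbn1 (chr2:125300594-125507993, minus strand) encodes fibrillin-1, the core protein of the microfibril. It had 7 counts in control, 38 with anti-PD-1, 4 with AZD5363+MK1775+anti-PD-1, 1 with KS100+anti-PD-1 and 0 in the other 2 pools. The anti-PD-1 pool stood 8.38-fold (3.70 to 22.2) above control. Both microfibril genes were thus high in 1 deep library and low in the other.

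Fn1 encodes fibronectin, a large glycoprotein that cells bind through integrins and stretch into fibrils. The gene lies at chr1:71585520-71653200 on the minus strand. It had 278 counts in control, 574 with anti-PD-1, 0 with AZD5363+MK1775, 28 with AZD5363+MK1775+anti-PD-1, 5 with KS100 and 2 with KS100+anti-PD-1. The levels were 182 normalised CPM (161 to 205) in control, 580 (534 to 630) with anti-PD-1 and 139 (92.5 to 201) with AZD5363+MK1775+anti-PD-1. The anti-PD-1 pool was 3.19-fold (2.76 to 3.69) above control and was the highest of the 6. The levels in the 2 KS100 pools, 151 (49.0 to 353) and 116 (14.0 to 419), could not be told apart from control at this depth.

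Dcn, Lum and Bgn encode decorin, lumican and biglycan, small leucine-rich proteoglycans that bind collagen fibrils. Dcn (chr10:97479609-97518143) and Lum (chr10:97565128-97572703) are neighbours on the plus strand, 46984 bases apart. Dcn had 6 counts in control, 40 with anti-PD-1, 12 with AZD5363+MK1775+anti-PD-1, 1 with KS100 and 0 in the other 2 pools. It was 10.3-fold (4.34 to 29.7) higher with anti-PD-1 than in control. Lum had 1 count in control, 14 with anti-PD-1 and 0 in the 4 inhibitor pools. Its ratio of 21.6 (3.29 to 914) rests on too few counts for a call. With no minimum count Lum and Thbs1 would be called too, making 9 of 10, beside 2.18% of 14412 genes. Bgn (chrX:73483602-73495933, plus strand) was detected in every pool, with 47 counts in control, 114 with anti-PD-1, 3 with AZD5363+MK1775, 5 with AZD5363+MK1775+anti-PD-1, 4 with KS100 and 1 with KS100+anti-PD-1. The anti-PD-1 pool was 3.75-fold (2.64 to 5.38) above control. In the 2 inhibitor pools without antibody Bgn stood at 109 (22.5 to 319) and 121 (32.9 to 309) normalised CPM against 30.8 (22.6 to 40.9) in control, neither past the rule.

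Postn, Thbs1 and Sparc encode matricellular proteins, which sit in the matrix and alter how cells hold to it. Postn (chr3:54361109-54391037, plus strand) encodes periostin, which binds collagen and fibronectin and is known from activated fibroblasts. It had 12 counts in control, 38 with anti-PD-1, 4 with AZD5363+MK1775+anti-PD-1, 2 with KS100, 3 with KS100+anti-PD-1 and 0 with AZD5363+MK1775, and its anti-PD-1 ratio was 4.89 (2.50 to 10.3). Thbs1 (chr2:118111876-118127133, plus strand) encodes thrombospondin-1, which restrains vessel growth and can activate latent TGF-beta. It had 2 counts in control, 12 with anti-PD-1, 9 with AZD5363+MK1775+anti-PD-1 and 0 in the other 3 pools, and its anti-PD-1 ratio of 9.27 (2.06 to 85.2) rests on too few counts for a call.

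Sparc (chr11:55394500-55423183, minus strand) encodes SPARC, also called osteonectin, a collagen-binding protein that acts in collagen assembly. It had 323 counts in control, 370 with anti-PD-1, 12 with AZD5363+MK1775, 325 with AZD5363+MK1775+anti-PD-1, 14 with KS100 and 1 with KS100+anti-PD-1. The levels were 211 normalised CPM (189 to 236) in control, 374 (337 to 414) with anti-PD-1 and 1616 (1445 to 1802) with AZD5363+MK1775+anti-PD-1. The anti-PD-1 ratio was 1.77 (1.52 to 2.06), below the 2-fold limit, and this interval does not overlap that of Lox, Fn1, Dcn, Bgn, Postn or Fbn1. Ordered by level, the triple-combination pool came first, with an interval above all others. The AZD5363+MK1775 (437, 226 to 763), KS100 (423, 231 to 710) and anti-PD-1 pools followed with overlapping intervals. Control and the KS100+anti-PD-1 pool (58.0, 1.47 to 323) came last, and their intervals overlap too.

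The anti-PD-1 pool also held more transcripts of several cell types that make or border on matrix. Of 10 fibroblast markers 8 were detected in each of these pools, and the list summed to 203 counts in control and 1637 with anti-PD-1, a ratio of 12.5 (10.8 to 14.5). Most of these counts were the collagen genes Col1a1, Col1a2 and Col3a1. The receptor gene Pdgfrb had 18 and 53 counts, Pdgfra 2 and 5 and Fap 1 and 4, and Pdpn and Clec3b were at 0 in both. All 6 skeletal muscle markers were detected in both pools and summed to 51.7 normalised CPM in control and 684 with anti-PD-1. The summed levels in control and with anti-PD-1 were 71.4 and 195 for smooth muscle and pericyte markers, 164 and 357 for endothelial markers, 96.9 and 279 for fat cell markers and 491 and 897 for macrophage markers. Most smooth muscle and pericyte counts were Rgs5 and Acta2. Of the fat cell counts, Fabp4 held 145 of 148 in control and 223 of 276 with anti-PD-1. Of the macrophage counts, Apoe held 604 of 750 and 588 of 887. Keratinocyte markers were at 0 in both pools, and platelet markers other than Pf4 and cartilage markers had at most 3 counts each. The part of these cell types in the matrix result was not tested.

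**Figure D2:**
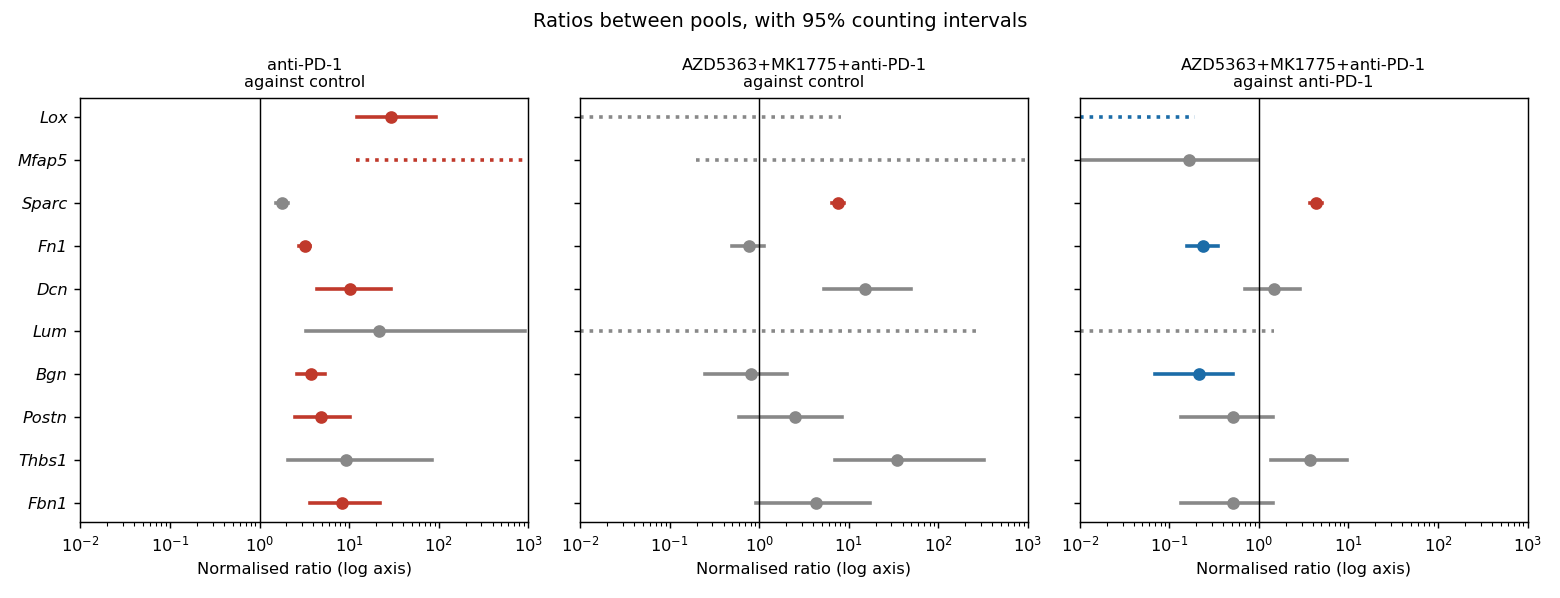
Normalised ratio of each gene (log axis) in 3 comparisons, with 95% exact conditional intervals; red is called higher, blue called lower and grey not called or under 20 counts, and dotted lines without a point are intervals where 1 pool had 0 counts. In the first panel every interval lies above 1, while in the third Sparc is higher at 4.32 and Lox, Fn1 and Bgn are lower.

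The combination of AZD5363, MK1775 and anti-PD-1 was compared with control, with the antibody and with the inhibitor pair. Its pool held more Sparc than any other, while Lox, Fn1 and Bgn were lower in it than with anti-PD-1 alone. Against control Sparc was 7.64-fold higher (6.53 to 8.94), the 1 of 3 genes tested that was called, where 14.9% of the 8059 genes tested were called higher and 7.97% lower. Library totals in place of TMM made every log2 ratio to control fall by 0.69, turned the split over all genes from 1202 higher and 642 lower to 605 and 1715, and put Sparc at 4.73, still called. Fn1 stood at 0.765 (0.499 to 1.13) and Bgn at 0.808 (0.251 to 2.02), neither past the rule. With library totals Fn1 was at 0.474 (0.309 to 0.700), wholly below 1, and Bgn at 0.500 (0.155 to 1.25), again neither past the rule. With TMM, of the genes with fewer counts, Postn was at 2.53 (0.595 to 8.35) and Fbn1 at 4.34 (0.932 to 17.1). Dcn was at 15.2 (5.28 to 49.3) and Thbs1 at 34.2 (7.08 to 325), and with no minimum count both would be called, beside 13.3% of 15157 genes. Lox and Lum had 0 counts.

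Against anti-PD-1 alone 3 of 8 genes tested were lower and 1 was higher, where 8.11% of the 7138 genes tested were called lower and 14% higher. Of these 8, only Sparc and Fn1 reached 20 counts in the triple-combination pool, and the others entered through their anti-PD-1 counts. Lox, with its 0 set at 3 counts, was 6.51-fold lower, Fn1 was at 0.24 (0.158 to 0.351) and Bgn at 0.216 (0.0687 to 0.518). Mfap5, at 0.164 (0.00402 to 0.986), Postn and Fbn1, each at 0.518 (0.134 to 1.44), and Dcn, at 1.48 (0.705 to 2.87), were not past the rule. Sparc was 4.32-fold higher (3.71 to 5.03). The 9 genes other than Sparc summed to 63 counts against 956, a ratio of 0.324 (0.247 to 0.419). With Sparc the sum was 1.44 (1.28 to 1.61), and its direction depended on the scaling, since it was 0.866 with library totals. With library totals every log2 ratio here fell by 0.73 and the split over all genes went from 1000 higher and 579 lower to 513 and 1760. Dcn then stood at 0.888, Mfap5 at 0.0987, now called lower, and Sparc at 2.60, still called higher.

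Against AZD5363+MK1775 without antibody Sparc was 3.70-fold higher (2.09 to 7.24), where 10.9% of the 2793 genes tested were called higher and 3.72% lower. With library totals the split over all genes went from 304 higher and 104 lower to 73 and 232, and Sparc, at 2.13, was not past the rule. Fn1 had 28 counts against 0 and was not past the rule. The other 8 genes had fewer than 20 counts in both pools.

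The share of Sparc among the counts of the 10 genes does not depend on how libraries are scaled. Sparc made up 47.4% of these counts in control (43.6 to 51.3, exact binomial interval), 27.9% (25.5 to 30.4) with anti-PD-1 and 83.8% (79.7 to 87.3) with AZD5363+MK1775+anti-PD-1. It made up 80.0% (51.9 to 95.7) of 15 counts with AZD5363+MK1775, 51.9% (31.9 to 71.3) of 27 with KS100 and 12.5% (0.316 to 52.7) of 8 with KS100+anti-PD-1. Fn1 made up 40.8% (37.1 to 44.6) in control, 43.3% (40.6 to 46.0) with anti-PD-1 and 7.22% (4.85 to 10.3) with AZD5363+MK1775+anti-PD-1. The make-up of the set therefore differed between the 3 deeper libraries by more than counting error, with Sparc lowest in the anti-PD-1 pool and highest in the triple-combination pool.

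**Figure D3:**
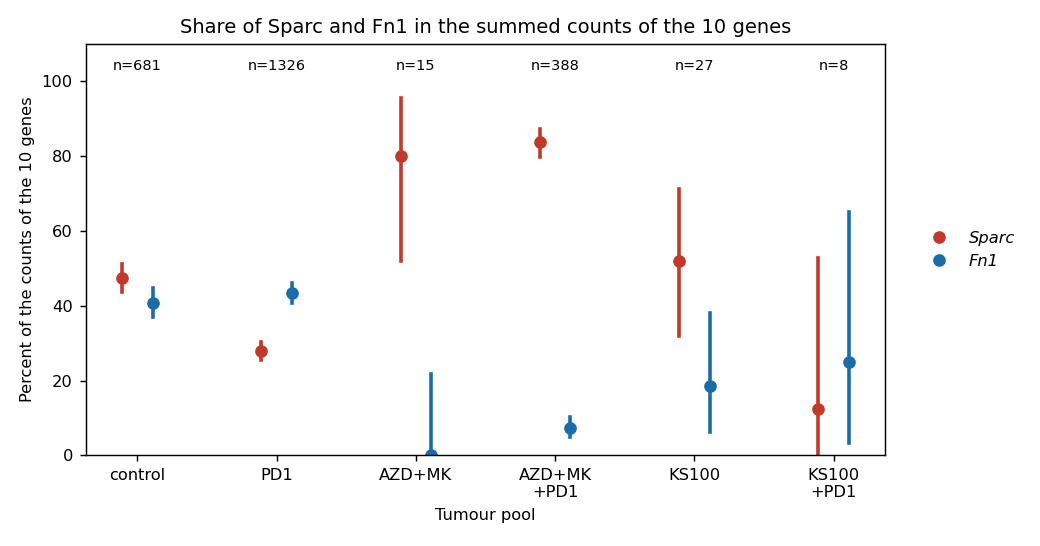
Percent of the summed counts of the 10 genes held by Sparc and by Fn1 in each pool, with 95% exact binomial intervals; n is the summed count (PD1, anti-PD-1; AZD+MK, AZD5363+MK1775). Sparc holds 83.8% in the triple-combination pool and 27.9% in the anti-PD-1 pool, and the pools with 8 to 27 counts have wide intervals.

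Skeletal muscle markers, like Sparc, were highest in the triple-combination pool. All 6 were detected there and summed to 12549 normalised CPM, against 684 in the anti-PD-1 pool, 51.7 in control and 0 in the AZD5363+MK1775 pool. The sums were 272 for KS100 and 985 for KS100+anti-PD-1. For KS100+anti-PD-1 the ratio of muscle sums to anti-PD-1 alone was 1.44 (0.835 to 2.33), with Ttn called higher and Acta1 lower. Of the 17 muscle counts of that pool, 14 were Ttn. Sparc in that pool was at 58.0 (1.47 to 323) from 1 count. AZD5363+MK1775 had no muscle counts (95% upper limit 134 normalised CPM), with Sparc at 437 (226 to 763). The fibroblast markers, 8 of 10 detected with Pdpn and Fap at 0, summed to 741 normalised CPM, against 1655 with anti-PD-1 and 133 in control, and endothelial markers to 194, against 357 and 164. Fat cell markers summed to 860, against 279 and 96.9, but 153 of the 173 counts were Car3. Fabp4 was at 94.5, against 225 with anti-PD-1 and 94.9 in control, Cfd had 1 count and Adipoq and Plin1 had 0. Col1a2 was 15.0-fold (10.1 to 22.5) above control in the triple-combination pool and 14.2-fold (10.2 to 20.2) above it with anti-PD-1. With library totals these ratios were 9.29 and 14.6. Col1a1 in the triple-combination pool was at 0.132 (0.0874 to 0.192) of its anti-PD-1 level. The part of muscle, of fibroblasts and of the ribosomal RNA reads in the Sparc value was not tested.

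The pools with KS100 and the AZD5363+MK1775 pool without antibody held few matrix counts. Against control none of the 3 genes tested passed the rule in any of the 3 pools, where the share of all genes tested that was called higher and lower was 1.65% and 1.22% for AZD5363+MK1775, 4.5% and 1.8% for KS100 and 4.59% and 2.64% for KS100+anti-PD-1. With library totals those splits went from 131 and 97 genes to 161 and 67 for AZD5363+MK1775, from 358 and 143 to 258 and 311 for KS100, and from 365 and 210 to 243 and 398 for KS100+anti-PD-1. With no minimum count Postn would be called higher for KS100+anti-PD-1, at 22.1 (4.01 to 82.0) from 3 counts, beside 7.86% of 17056 genes. Summed ratios to control were 1.22 (0.682 to 2.03) with AZD5363+MK1775, 1.83 (1.20 to 2.69) with KS100 and 1.04 (0.447 to 2.06) with KS100+anti-PD-1. Among the values not past the rule, 4 had intervals on 1 side of 1. Fn1 had 0 counts in the AZD5363+MK1775 pool, with an upper limit of 0.743 on the ratio. With the 0 set at 3 counts it was 1.67-fold lower. Sparc was at 2.07 (1.06 to 3.66) there, and in the KS100 pool Sparc was at 2.0 (1.08 to 3.40) and Bgn at 3.93 (1.03 to 10.7). With library totals the KS100 ratios were 1.54 (0.833 to 2.62) for Sparc and 3.03 (0.792 to 8.28) for Bgn. KS100+anti-PD-1 was also set against anti-PD-1 alone, where none of 8 genes tested was called, beside 3.33% of all genes tested called higher and 2.9% lower (232 and 202 genes, or 163 and 416 with library totals). Sparc was at 0.155 (0.00391 to 0.868) there and Fn1 at 0.20 (0.0241 to 0.725), and with library totals both would be called lower, at 0.106 and 0.137. Against KS100 none of the 10 genes had the 20 counts needed, and of the 209 genes in all that did 4.31% were higher and 34% lower.

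A rough background was set beside these counts, from 8817 protein-coding genes at 0 counts in both pools without inhibitor. Spread over exons at the same rate, it would give the 10 genes 0.46 counts with AZD5363+MK1775, 2.94 with AZD5363+MK1775+anti-PD-1, 4.81 with KS100 and 5.63 with KS100+anti-PD-1. The observed 15, 388 and 27 lie well above this in the first 3, and the 8 counts of the KS100+anti-PD-1 pool do not. By gene, Sparc had 14 counts in the KS100 pool against 0.28 expected, and Postn had 3 in the KS100+anti-PD-1 pool against 0.752. The expected counts follow exon length although reads came from 3′ ends. The genes behind them were picked for 0 counts in both pools without inhibitor, so the expected counts may be too low.

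The arm effects were also tested over all 6 pools, with inhibitor and antibody as additive terms. No gene of the set was called for any of the 3 effects by edgeR's quasi-likelihood test at a Benjamini-Hochberg adjusted p under 0.05, and none by DESeq2. Sparc, Fn1 and Bgn passed the filter on low counts, and the other 7 were not fitted. Of the 4912 genes fitted, 0.143% were called for anti-PD-1, 1.34% for AZD5363+MK1775 and 7.7% for KS100. For AZD5363+MK1775, 2 of the 3 genes had an unadjusted edgeR p under 0.05 (1 with DESeq2): Sparc had a log2 change of 1.77 ± 0.83 (SE, edgeR adjusted p = 0.491) and Fn1 one of -2.27 ± 0.93 (edgeR adjusted p = 0.325). For anti-PD-1 the log2 changes were 0.51 ± 0.75 for Sparc, 1.47 ± 0.83 for Fn1 and 0.43 ± 0.94 for Bgn, each with an edgeR adjusted p of 0.999. None of the 3 genes had an unadjusted p under 0.05 for anti-PD-1 or KS100 with either tool. The model has 2 residual degrees of freedom and takes pools of other treatments as replicates, so it tests the mean effect of the antibody over 3 arms, and not the anti-PD-1 pool against control.

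Other genes of the matrix system were compared between the same pair of pools. Of 16 collagen chain genes, the nearest set by function, 11 of 12 tested were higher, and all 16 summed to a ratio of 7.67 (6.93 to 8.50). Among the 11, Col18a1, Col5a1, Col5a2, Col5a3 and Col14a1 had 3, 15, 8, 13 and 8 counts in control. These genes reached the minimum count only with anti-PD-1, so they could enter the test only by being high there. The sum has no minimum count. For each collagen count there were 0.79 counts (0.686 to 0.91) of the 9 genes other than Sparc in control and 0.425 (0.394 to 0.459) with anti-PD-1, so collagen counts grew by the larger factor. None of 7 further cross-linking and collagen-modifying genes tested was past the rule, and this list, with the other lysyl oxidase genes, the collagen hydroxylases and the collagen chaperone gene Serpinh1, summed to 0.973 (0.901 to 1.05), and to 1.00 with library totals. None of 3 elastic fibre genes and none of 5 other proteoglycans tested was past the rule, with sums of 0.842 (0.726 to 0.975) and 1.51 (1.31 to 1.74).

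Over all genes tested 2.69% were called higher with anti-PD-1 and 2.14% lower. Of 11 other matrix glycoprotein and matricellular genes tested 5 were higher with anti-PD-1 and none lower. They included Thbs2, a relative of Thbs1, at 9.27-fold (4.12 to 24.4) and Tnc, which encodes tenascin-C, at 6.65-fold (3.59 to 13.3). Spp1, which encodes osteopontin, was at 2.56-fold (1.94 to 3.39). Of 14 matrix receptor genes 4 were higher, among them the integrin genes Itgb5 at 14.4-fold (4.45 to 74.1) and Itga6 at 3.03-fold (1.83 to 5.11). Of 12 protease and inhibitor genes 3 were higher, among them the serine protease inhibitor gene Serpine2 at 12.4-fold (3.75 to 64.1). Of 8 TGF-beta pathway genes 1 was higher, the signal transducer gene Smad3 at 2.52-fold (1.72 to 3.72). Among the genes named here, Thbs2, Tnc, Itgb5 and Serpine2 had 7, 13, 3 and 3 counts in control. They too entered the test only through their anti-PD-1 counts.

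The same lists were compared between the triple-combination pool and anti-PD-1 alone, and most genes of each list were not past the rule. Over all 7138 genes tested 14% were called higher and 8.11% lower, so a single call in a short list is near that share. Of 13 receptor genes tested 5 were higher and 1 lower, with a summed ratio of 2.43 (2.23 to 2.64). Higher receptor genes included Cd47, which encodes a thrombospondin receptor, at 7.22-fold (4.51 to 11.7), Itgb1, which encodes an integrin subunit that pairs to bind fibronectin and collagen, at 4.25-fold (3.35 to 5.39), and the hyaluronan receptor gene Cd44 at 3.59-fold (3.14 to 4.11). The lower one was the collagen receptor gene Ddr1 at 0.326 (0.19 to 0.524). Among 12 collagen chain genes the count was 3 lower and 0 higher, with a sum of 0.437 (0.377 to 0.506), and of 11 other glycoprotein genes 2 were lower, Spp1 at 0.212 (0.0766 to 0.474) and Tnc at 0.176 (0.0208 to 0.665). Of 5 other proteoglycan genes 1 was higher, the syndecan gene Sdc2 at 3.41-fold (1.76 to 6.45), and of 7 cross-linking and collagen-modifying genes 1 was higher, the prolyl hydroxylase gene P4ha1 at 2.75-fold (1.59 to 4.63). These lists summed to 0.931 (0.716 to 1.20) and 0.809 (0.688 to 0.948). With library totals Sdc2 was at 2.05 and P4ha1 at 1.65, neither past the rule, and the sums were 0.56 and 0.487. With library totals the receptor sum was 1.46 and the collagen sum 0.263, in the same directions.

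**Figure D4:**
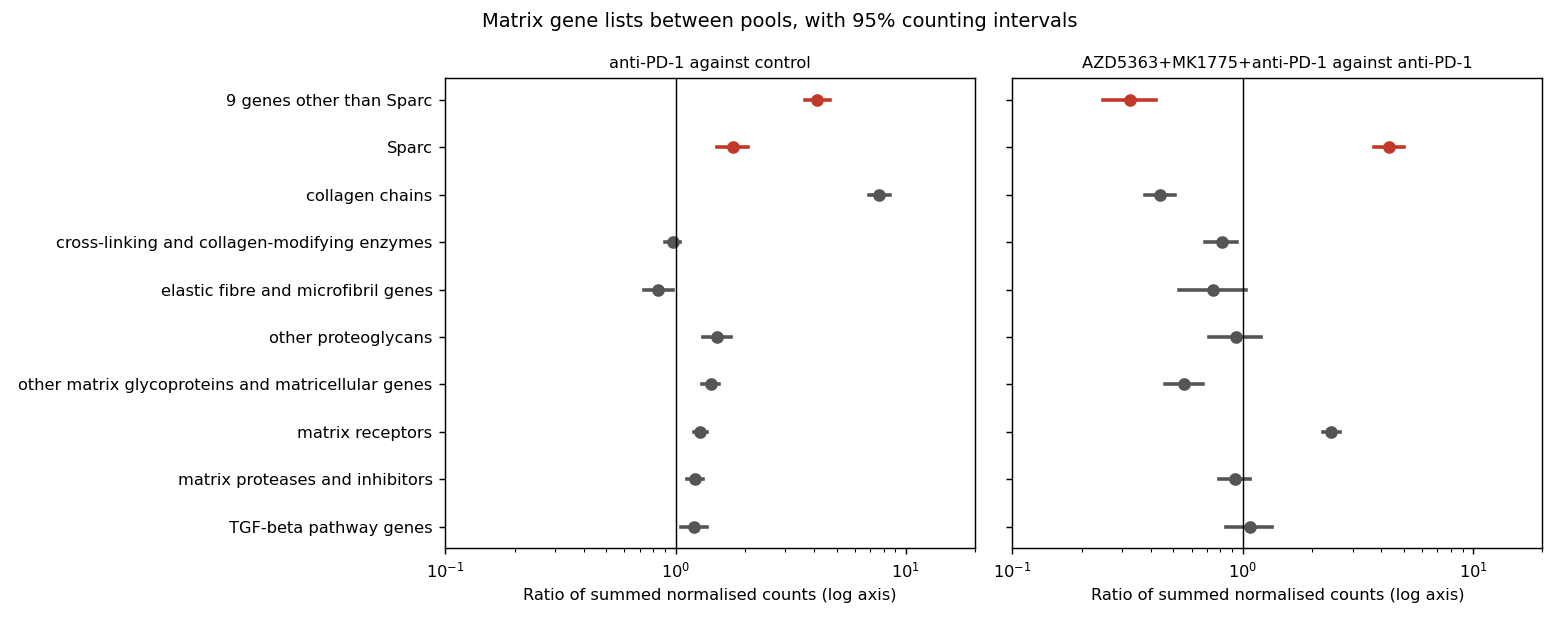
Ratio of summed normalised counts (log axis) for Sparc, for the 9 genes other than Sparc and for 8 lists of other matrix genes, in 2 comparisons, with 95% exact conditional intervals; the members are in red. Collagen chains lie furthest to the right with anti-PD-1 at 7.67, and in the second panel Sparc at 4.32 and matrix receptors at 2.43 lie right of 1 while the 9 genes lie at 0.324.

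Promoter sequences are shown for 2 members that were higher with anti-PD-1, Postn and Bgn, because 7 of the 10 genes were called higher there. RefSeq's table for GRCm38.p6 held 4 of the 10 genes, and for Sparc and Fbn1 the bases before the listed start overlap exons of the same gene, so they are not shown. For Postn the table lists a second, more upstream start, whose window (chr3:54359167-54359266) holds none of the searched motifs, and the start next to the annotated gene start is shown. The 100 bases before the start are given 5′ to 3′, with matches to the searched motifs in capitals. The regions are chr3:54361007-54361106 on the plus strand for Postn and chrX:73483501-73483600 on the plus strand for Bgn.
Postn: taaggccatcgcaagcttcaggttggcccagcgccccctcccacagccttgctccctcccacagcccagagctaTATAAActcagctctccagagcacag
Bgn: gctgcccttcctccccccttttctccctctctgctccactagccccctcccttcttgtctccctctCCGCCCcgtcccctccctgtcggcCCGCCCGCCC
The motifs searched on both strands were the TATA box TATAAA, the AP-1 site TGANTCA and the GC box GGGCGG, which reads CCGCCC on the other strand. Postn holds 1 TATA box match, 26 bases before the start, and Bgn holds 3 GC box matches, 2 of which overlap. Of 32851 windows of this length in the table, 5.56% hold the TATA box letters, 24.7% the GC box and 2.73% the AP-1 site. The 2 windows shown share none of the 3 motifs.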

How the data were processed

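The values are raw counts, deposited by the authors as 1 table with a row per Ensembl gene. Per the labels' protocols, RNA was primed with oligo-dT, made into QuantSeq 3′ FWD libraries and read for 151 cycles on a MiSeq. GRCm38, HISAT2 2.1.0, HTSeq and bcl2fastq appear in GEO's list of builds and tools, per the submitters' processing notes. Not given in the sources used here: strand setting, annotation release and the handling of multi-mapped reads. The deposited counts held 43629 genes and 92 spike-in rows, all at 0. Exons of Lox, Fn1, Thbs1 and Fbn1 overlap those of antisense genes, and the 3 such genes in the table had 0 counts. Symbols, coordinates (counted from 1) and exon lengths came from GENCODE M21.

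TMM factors were computed (R 4.3.3, edgeR 4.0.16) on the 4912 genes that filterByExpr kept (TMM factors 0.675 to 1.16). Ratios used exact conditional (Clopper-Pearson) intervals, and a 0 was set at 3 counts for bounds, which had to reach 2-fold too. Arm effects were fitted with glmQLFit and glmQLFTest, and the SE is the log2 change divided by the square root of F. Median log2 ratios used a prior count of 2, split by library size. Scripts were tested on simulated data. Alternatives were DESeq2 1.42.0 and its size factors, library totals, TMM without mitochondrial and ribosomal RNA genes, other count and fold limits, no filter, and each pool left out. No molecular identifiers were counted, so intervals and limits cover counting error only. The members, gene lists and tests were chosen with earlier results of these data known. In the other lists, the text names at most 4 genes per list and comparison. They were drawn from the 4 past the rule whose nearer interval bound lay farthest from 1, and not all of these were named. Pdgfra, Fap, Pdpn, Clec3b, Pf4, Serpinh1 and Ddr1 were named after their values were seen. The same holds for Fabp4, Cfd, Adipoq, Plin1, Apoe, Rgs5 and Acta2. So were the collagen genes named for low control counts, which fall outside that limit of 4.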

Additional observations from a re-analysis of the deposited data

Results flagged for a closer look

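Sparc ratios for the same treatment lay on opposite sides of 1 in different arms. The antibody ratio was 1.77 (1.52 to 2.06) without an inhibitor, 3.70 (2.09 to 7.24) with AZD5363+MK1775 and 0.137 (0.00324 to 0.901) with KS100. The KS100 ratio was 2.0 without antibody and 0.155 with it. Of these 5 ratios only 3.70 was past the size rule, and 0.137 was not tested because both counts were under 20. With library totals the KS100 ratio without antibody was 1.54 (0.833 to 2.62), no longer on 1 side of 1. The difference was not tested, since each arm has 1 library per antibody. The low values rest on 1 count in the KS100+anti-PD-1 pool.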

How the results depend on the processing

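Depth sets what can be seen: in the AZD5363+MK1775, KS100 and KS100+anti-PD-1 pools 3 counts are 90.6 to 174 normalised CPM, above the control level of 8 of the 10 genes. Calls and sums that moved did so as follows. With Sparc left out, the summed ratio was 4.12 for anti-PD-1, 0.466 for AZD5363+MK1775 and 1.34 for AZD5363+MK1775+anti-PD-1, each against control, and 0.324 for AZD5363+MK1775+anti-PD-1 against anti-PD-1. With library totals, the sum for AZD5363+MK1775+anti-PD-1 was 2.68 against control, 0.866 against anti-PD-1 and 2.04 against AZD5363+MK1775. With library totals, 0 genes were called for AZD5363+MK1775+anti-PD-1 against AZD5363+MK1775 in place of 1, and 2 for KS100+anti-PD-1 against anti-PD-1 in place of 0. With a minimum of 10 counts 2 genes, and with none 3, were called for AZD5363+MK1775+anti-PD-1 against control, and 1 gene with either for KS100+anti-PD-1 against control. With no minimum 9 genes were called for anti-PD-1 against control, within 1.5 times the 7 called with 20. DESeq2 size factors, TMM without mitochondrial and ribosomal RNA genes and a 3-fold limit moved no count by over 1.5 times, and the first 2 moved no sum beyond its interval. Ratios against a pool at 0 counts have no finite value and were not compared across settings. For the 3 arm effects 0 genes of the set were called under each alternative run, and 0 to 0 with each pool left out. Between 1 and 8 of the 10 genes were then fitted. No paired analysis was possible because each treatment has 1 pool and the labels give no shared replicate numbers.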
